A study of Orbicella faveolata with 48 samples.

Results

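The 200 transcripts described here are features of the coral that stood lower under heat than in controls in 3 comparisons: inshore fragments at 5 days, offshore fragments at 5 days and inshore fragments at 31 days. They were chosen by measured values. In each comparison the median of log2(CPM+1) over the heated libraries had to lie at least 0.6 below the median over the control libraries, where CPM scales each count to the coral total of its library. Of 87440 assembled coral features, 26353 had a mean of 2 CPM or more over the 48 libraries, and 462 of these passed in all 3 comparisons. The 200 whose weakest difference of the 3 was largest in size were kept. The offshore fragments of 31 days took no part in those differences, so their 6 libraries are the one place where the heat response of these transcripts could be tested.

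Reef-building corals house photosynthetic algae inside the cells of their gut lining and receive sugars from them. In warm water the partnership can break down and the algae are lost, which is called bleaching. RNA from coral tissue therefore holds transcripts of both partners, and heat changes the amounts of many host transcripts, among them those of protein folding, metabolism and immunity. The deposited tables do not pair their identifiers with gene names, so the members are named by identifier and no function is given for any of them.

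The libraries hold RNA of Orbicella faveolata, the mountainous star coral, sampled on reefs near the shore of the Florida Keys (inshore) and farther out (offshore), and the study asked how heat tolerance differs between those habitats. Fragments were kept at 30 °C as controls or were warmed gradually, to 33 °C for those sampled at 5 days and to 32 °C for those sampled at 31 days. At each time there were 9 control and 9 heated inshore libraries, and 3 control and 3 heated offshore libraries. Each library carried a colony tag (A4, for example) and a genotype label, In1 to In4 inshore and O1, O2 or O5 offshore. Several inshore tags shared a label, whereas each offshore label had 1 fragment per arm and time. Labels did not follow a tag between the times, since C2 was O2 at 5 days and O1 at 31 days. Heat temperature and time in the tanks differ together between 5 and 31 days and cannot be told apart.

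Each library held 4726660 to 6686880 coral counts and 67428 to 1360640 counts of a second table of 93246 features, marked as symbiont by its name and called algal here. In 3 libraries of 31 days (the C4 control and the heated fragments of B2 and B3) 106 other coral features made up 7.21% to 8.64% of the coral counts. Elsewhere their share never exceeded 0.424%. None of the 106 is among the 200. The C4 control is 1 of only 3 offshore controls at 31 days, so the main counts over the 200 are also given without it.

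Apart from the C4 control of 31 days the 200 transcripts stood at like levels in the controls, and in heated fragments they were lower in each habitat and at each time, which for 3 of the 4 comparisons follows from their selection. Each library was summarised by the median, over the 200, of log2(CPM+1) minus the mean of the 24 controls. At 5 days this was -0.12 to 0.13 (median 0.02) in inshore controls and -1.58 to -0.74 (median -1.37) in their heated counterparts. Offshore at that time it was 0.06, 0.17 and 0.27 in controls and -1.93, -1.27 and -1.07 under heat. The arms did not overlap in either habitat. At 31 days inshore controls lay at -0.03 to 0.35 (median 0.14) and inshore heated fragments at -1.75 to -0.50 (median -0.95), again without overlap.

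Offshore at 31 days the arms did overlap. The controls stood at -0.10 (C2), -0.14 (C5) and -1.10 (C4), and the heated fragments at -0.92 (C2), -0.93 (C5) and -1.50 (C4). The C4 control was thus as low as heated fragments, and the heated fragment of its own tag was lower still. Over all features past the CPM minimum the same median was itself -0.59 in the C4 control, and 0.11 in heated C4. In 98 members the C4 control lay below each of the other 23 controls, which was 49% of them, beside 40.4% of all features past the CPM minimum. In bulk tissue, fewer cells of a type and less RNA per cell cannot be told apart in any of these values.

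**Figure D1:**
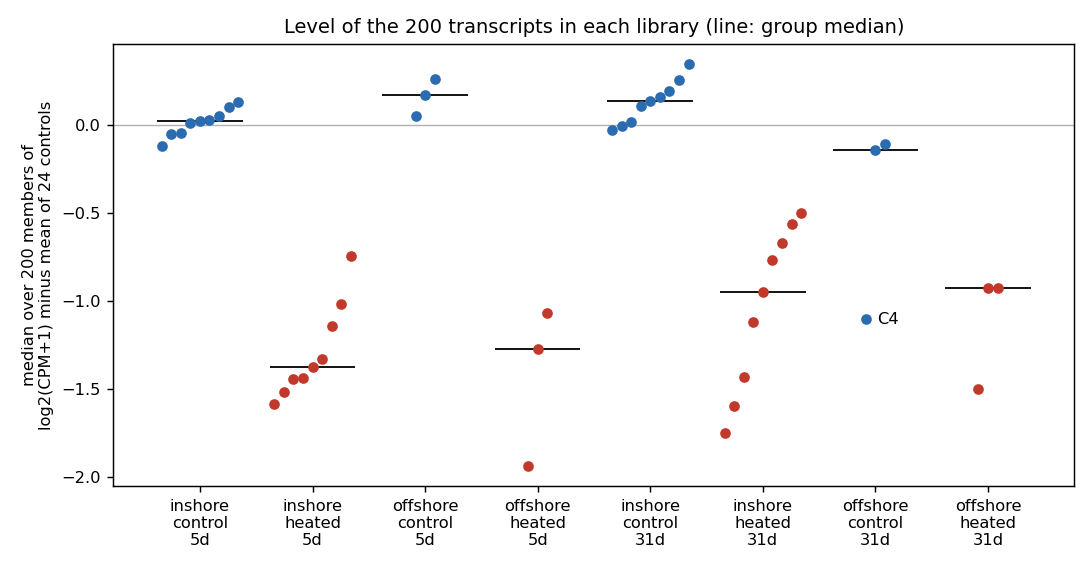
Level of the 200 transcripts in each of the 48 libraries, as the median of log2(CPM+1) minus the mean of the 24 controls (y axis), by group (x axis); points are libraries, blue for control and red for heated, and lines are group medians. Heated fragments lie at -0.50 or below in every group, and the C4 control of 31 days, at -1.10, is the one control among them.

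As a share of all coral counts the 200 were small. At 5 days their sum had an inshore median of 0.795% in controls and 0.269% under heat, and 1.0% and 0.343% offshore. At 31 days the medians were 0.932% and 0.53% inshore and 0.682% and 0.467% offshore. The highest share of any library, 2.36%, was in a heated fragment (A2 of 31 days), where 1 member, OFAVBQ_DN215677_c1_g1_i9, reached 20338 CPM. The counting error of a single member's share was at most ±0.012 percentage points (95% Wilson interval, counting error only).

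By size of difference, the median over the members of heated minus control group medians was -1.30 (log2 scale) inshore at 5 days, -1.61 offshore at 5 days and -1.14 inshore at 31 days, beside 0.03, 0 and -0.03 over all features. These 3 are a description of the choice. They reached from -0.83 down to -4.19 inshore at 5 days, from -0.82 to -6.92 offshore at 5 days and from -0.82 to -4.61 inshore at 31 days. The comparison with the weakest difference was inshore 31 days for 102 members, inshore 5 days for 74 and offshore 5 days for 24. In 139 of the 200 the 5-day difference was larger offshore than inshore, and in 116 the inshore difference was smaller at 31 than at 5 days. Offshore medians rest on 3 libraries per arm and inshore medians on 9. Over all features the 5-day differences spread more offshore (quartiles -0.26 and 0.28) than inshore (-0.15 and 0.21). Both counts come from comparisons that chose the members, and nothing is read from them.

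At the limit of the selection, the last members kept were OFAVBQ_DN209353_c0_g1_i1, with a weakest difference of -0.819, and OFAVBQ_DN193785_c0_g1_i3, with -0.8187. The first left out were OFAVBQ_DN219662_c1_g1_i2 at -0.8186 and OFAVBQ_DN215575_c0_g3_i3 at -0.8181. OFAVBQ_DN193785_c0_g1_i3 had inshore medians that went from 164 CPM in controls to 42.7 CPM under heat at 5 days, and from 114 to 64.2 CPM at 31 days. OFAVBQ_DN215575_c0_g3_i3, just outside, went from 75.8 to 37.1 CPM and from 72.2 to 32.9 CPM. The 262 features that passed the 3 comparisons but not the limit had a median offshore 31-day difference of -0.37, against -0.63 in the 200.

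Tested feature by feature with edgeR's quasi-likelihood test (Benjamini-Hochberg adjustment over all 34540 features tested at 5 days and 35219 at 31 days), 167 members were called lower inshore at 5 days, beside 5.3% of all features. Offshore at 5 days 81 were called lower (1.37% of all features), and inshore at 31 days 69 (1.26%), or 28 with colony tags as pairs (0.219%) and 0 without the label In3. The offshore 5-day count was 41 and 26 without the C1 and C2 controls, and 42 and 24 without their heated fragments. Each of these fits lost the whole tag pair offshore, as its label was left with a single arm. In 38 members all 3 calls were made. None of the 200 was called higher in any of these 3 comparisons. Every heated library lay below every control in 42 members inshore at 5 days (0.994% of all features), in 122 offshore at 5 days (8.4%) and in 22 inshore at 31 days (0.368%). All of these counts concern comparisons that chose the members, and nothing is read from them.

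Offshore at 31 days, the comparison that the selection left aside, most of the 200 were again lower under heat, by less than at the other 3. In group medians 165 of 200 were lower, beside 40.1% of all features, and 105 were lower by 0.6 or more, beside 4.83%. Another 60 lay between 0 and -0.6, 35 stood at or above 0, and 7 were higher by 0.6 or more. The median difference was -0.63 (quartiles -1.29 and -0.21), against 0.08 over all features. Individual members ranged from -5.98 to 2.22.

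Few of these differences passed a test one by one. edgeR's quasi-likelihood test with Benjamini-Hochberg adjustment called 4 members lower and 0 higher, beside 0.0227% of all features called lower (8 features in all). At an unadjusted p under 0.05 the test had 70 members lower, 35% of them, beside 4.86% of all features. Every heated fragment lay below every control in 39 members (2.53% of all features), and in 94 (9.33%) without the C4 control, an alternative chosen after seeing the data. With colony tags as terms in place of genotype labels (tags as pairs) 9 members were called, beside 0.0738% of all features (26 in all). Each offshore label already paired the arms of a tag in the main model. The tag setting therefore regrouped only the inshore fragments, and with them the spread that all libraries share. DESeq2 called 34, beside 0.5% (176 in all). Without either fragment of C4 edgeR called 0 members (58 at an unadjusted p under 0.05), and without the inshore label In3 0 as well (65). With any 1 of the other 4 offshore libraries left out it called 1 or 2. In this model a label left with a single arm adds nothing to the offshore change. Each fit without an offshore library thus lost a whole tag pair, and cannot set the C4 control apart from heated C4.

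Tag by tag, the offshore pairs of 31 days leaned the same way. In C5 165 members were lower in the heated than in the control fragment (median -0.62), where 55.7% of all features were lower. In C2 149 were lower (median -0.95), beside 48.8% of all features. In C4 130 were lower (median -0.36), although the median of all features there was 0.70 higher under heat and just 22.7% were lower. All 3 tags were lower in 83 members, beside 7.8% of all features. With the C4 control left out, 176 members were lower in group median (50.7% of all features) and 123 by 0.6 or more (7.23%). With the C2 control left out instead, 141 were lower (30.6% of all features) and 77 by 0.6 or more (9.32%), the lowest counts of any single library removed.

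**Figure D2:**
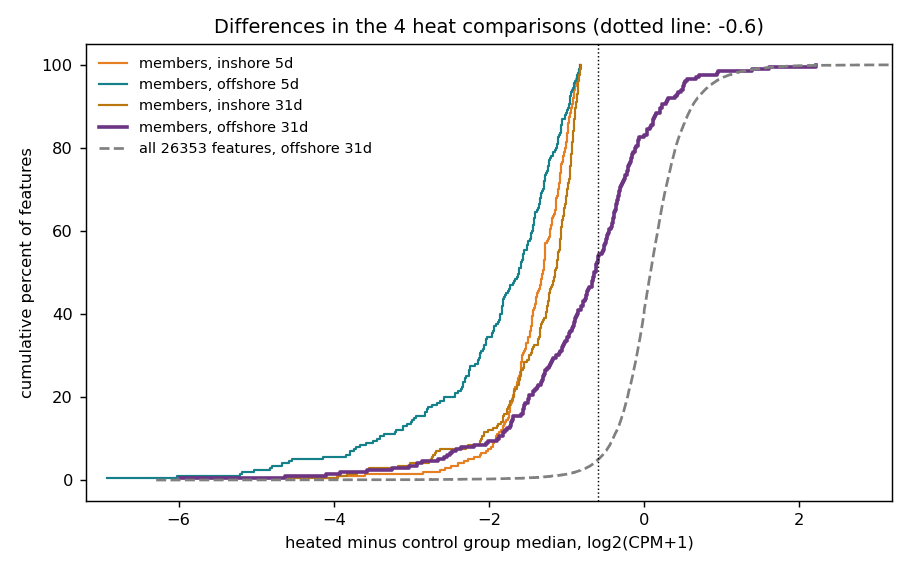
Cumulative percent (y axis) of members, in the 4 heat comparisons, and of all 26353 features, offshore at 31 days, by the difference of group medians of log2(CPM+1), heated minus control (x axis). The 3 comparisons that chose the members stop at about -0.82 by construction, whereas the offshore 31-day line has its median at -0.63 and passes 0, with the line for all features to its right at a median of 0.08.

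The 4 members called lower offshore at 31 days were OFAVBQ_DN201663_c4_g1_i1, OFAVBQ_DN217826_c12_g1_i4, OFAVBQ_DN208354_c4_g1_i3 and OFAVBQ_DN225138_c1_g4_i2. OFAVBQ_DN201663_c4_g1_i1 measured 39.0, 61.1 and 51.9 CPM in the controls of C2, C4 and C5, and 3.17, 5.95 and 7.96 CPM in their heated fragments. All 3 heated values lay below all 3 controls, C4 included (log2 change -3.44, SE 0.42, edgeR quasi-likelihood adjusted p = 0.00482). At 5 days the offshore values were 107, 50.7 and 62.7 CPM in the controls of C1, C2 and C5 and 1.8, 3.42 and 16.4 CPM under heat. Inshore it was 26.0 to 73.6 CPM (median 51.1) in controls and 7.52 to 26.2 CPM (median 17.7) under heat at 5 days, where the lowest control fell within the heated range. At 31 days it was 30.9 to 63.7 CPM (median 42.6) and 5.33 to 20.5 CPM (median 15.3), with no overlap.

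OFAVBQ_DN217826_c12_g1_i4 was the second. In the offshore libraries of 31 days it measured 99.4, 82.5 and 108 CPM in the controls of C2, C4 and C5 and 19.6, 29.6 and 30.1 CPM under heat (log2 change -2.11, SE 0.28, edgeR quasi-likelihood adjusted p = 0.00705). At 5 days the offshore controls of C1, C2 and C5 held 166, 151 and 85.6 CPM, and their heated fragments 17.4, 13.7 and 44.4 CPM. The arms were apart at both times. Inshore its controls ran from 86.1 to 155 CPM (median 123) at 5 days, and heated fragments from 19.0 to 89.9 CPM (median 29.8). The heated value that reached the controls was that of A4, the tag whose median change over the 200 was smallest at 5 days. At 31 days inshore controls ran from 75.8 to 132 CPM (median 119) and heated fragments from 20.6 to 86.4 CPM (median 46.6), the highest of them A5.

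OFAVBQ_DN208354_c4_g1_i3 is also among the 4 most abundant members. Its arms did not overlap in any of the 4 comparisons. It held, offshore at 31 days, 243, 182 and 205 CPM in the controls of C2, C4 and C5 and 53.8, 84.4 and 84.1 CPM under heat (log2 change -1.75, SE 0.27, edgeR quasi-likelihood adjusted p = 0.0445). Values offshore at 5 days were 340, 303 and 290 CPM in the controls of C1, C2 and C5 and 64.1, 68.1 and 129 CPM under heat. Inshore controls spanned 240 to 366 CPM at 5 days and 254 to 341 CPM at 31 days, and heated fragments 54.5 to 204 CPM and 67.3 to 168 CPM. With colony tags as pairs it missed the threshold offshore at 31 days (adjusted p = 0.0822 by the same test), and it did so with any 1 of the 6 offshore libraries left out (0.0508 to 0.275).

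The fourth, OFAVBQ_DN225138_c1_g4_i2, had lower counts. It measured, offshore at 31 days, 6.8, 6.3 and 7.26 CPM in the controls of C2, C4 and C5 and 0.22, 0.70 and 1.41 CPM under heat (log2 change -3.45, SE 0.59, edgeR quasi-likelihood adjusted p = 0.0491). The arms were also apart offshore at 5 days, at 8.86 to 12.4 CPM and 0 to 3.97 CPM, and inshore at 31 days, at 6.98 to 12.4 CPM and 0.548 to 6.20 CPM. At 5 days inshore they overlapped, at 5.36 to 11.8 CPM and 0.495 to 8.73 CPM. With colony tags as pairs its adjusted p was 0.134, and with any 1 of the 6 offshore libraries left out 0.0668 to 0.369. It is named because it completes the 4 calls, after its values were seen.

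Both OFAVBQ_DN201663_c4_g1_i1 and OFAVBQ_DN217826_c12_g1_i4 were called with tags as pairs (adjusted p = 0.0234 and 0.025, edgeR quasi-likelihood). With either C4 library left out neither passed (adjusted p from 0.240 to 0.269), with log2 changes of -3.08 and -3.06 for OFAVBQ_DN201663_c4_g1_i1 and of -2.04 and -2.03 for OFAVBQ_DN217826_c12_g1_i4. Without a fragment of C2, OFAVBQ_DN217826_c12_g1_i4 had an adjusted p of 0.063 (control left out) and 0.0625 (heated left out).

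**Figure D3:**
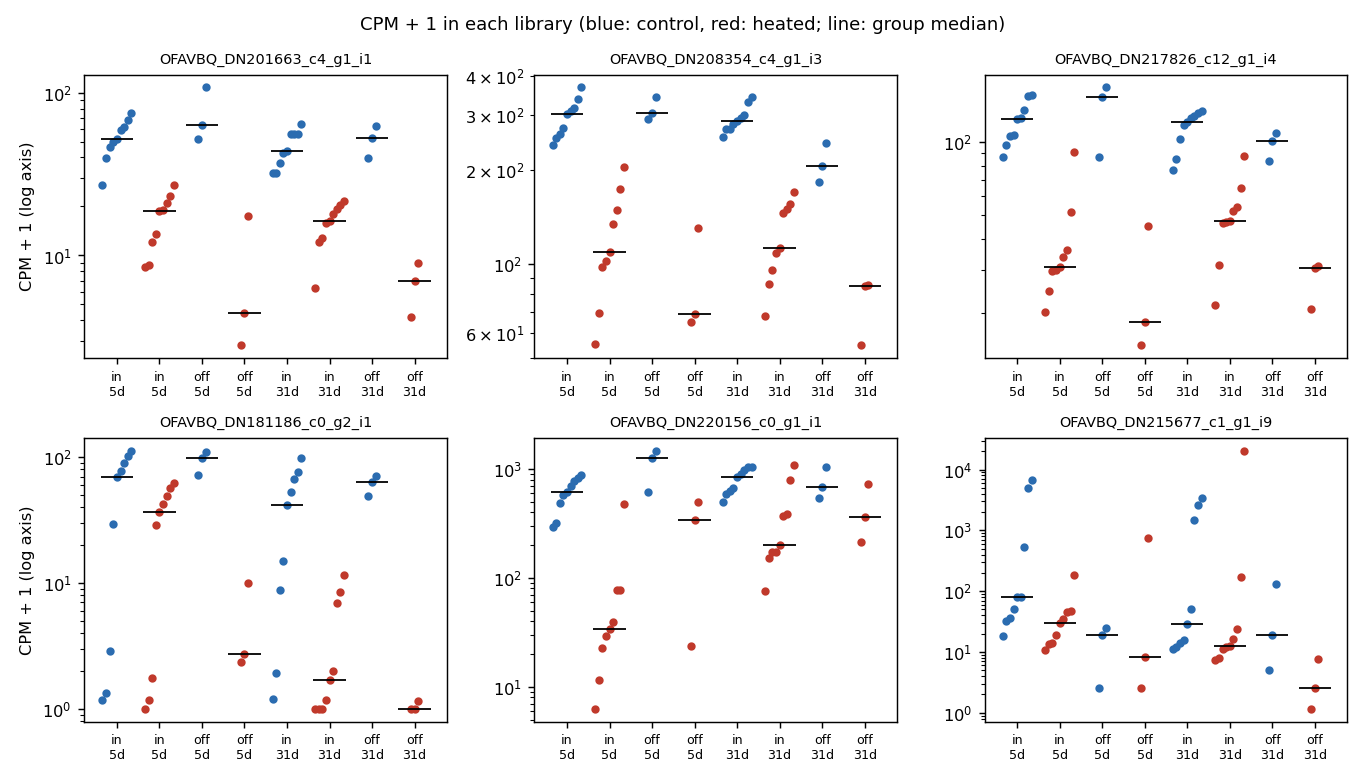
CPM + 1 (log axis) of 6 members in each library, by group (x axis: habitat and day), with blue for control, red for heated and lines for group medians. The 3 of the upper row are lower in every offshore heated fragment than in every offshore control at both times, while OFAVBQ_DN215677_c1_g1_i9 spans 0.159 to 20338 CPM and its arms overlap in each of the 4 comparisons.

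The members with the largest weakest difference showed how wide the spread between fragments was. OFAVBQ_DN217429_c3_g6_i1, first in the order, had inshore medians of 8.48 CPM (control) and 0.903 CPM (heated) at 5 days, and of 12.3 and 1.71 CPM at 31 days. Its offshore controls of 31 days held 9.2 (C2), 1.15 (C4) and 8.57 CPM (C5) and its heated fragments 0.317, 2.75 and 2.39 CPM. In C4 the heated value was the higher one, and the change was not called (log2 change -1.82, SE 1.10, edgeR quasi-likelihood adjusted p = 0.603). It was -2.82 without the C4 control, -2.81 without heated C4, -0.76 without the C2 control and -0.77 without heated C2.

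OFAVBQ_DN217429_c3_g1_i2, second in the order, comes from the same assembly component, a group of assembled transcripts that share sequence. Its medians went from 121 to 6.87 CPM inshore at 5 days and from 171 to 39.0 CPM at 31 days. Its offshore values at 5 days were 334, 193 and 134 CPM in controls and 0.599, 0 and 37.3 CPM under heat, the largest difference of any member there. At 31 days the offshore controls held 125 (C2), 31.7 (C4) and 206 CPM (C5) and the heated fragments 4.59, 34.9 and 44.4 CPM. The fragments of C2 and C5 were thus far apart while those of C4 were alike (log2 change -2.39, SE 1.11, edgeR quasi-likelihood adjusted p = 0.494). Without the C4 control it was -3.33, and -1.35 without either fragment of C2. The other member of that component, OFAVBQ_DN217429_c3_g5_i1, ranked 98th and had a difference of -2.03 offshore at 31 days.

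OFAVBQ_DN199461_c0_g6_i1 and OFAVBQ_DN216556_c1_g1_i1 came next. The former had medians of 51.8 and 8.97 CPM inshore at 5 days (control and heated) and of 46.5 and 10.2 CPM at 31 days. The offshore 31-day values were 44.4, 14.7 and 24.7 CPM in the controls of C2, C4 and C5 and 20.7, 6.39 and 29.8 CPM under heat. C2 and C4 were lower and C5 higher, and the change did not pass (log2 change -0.88, SE 0.78, edgeR quasi-likelihood adjusted p = 0.738). It was -0.37 and -0.36 with the control or heated library of C4 left out, and -1.47 and -1.50 with those of C5 left out. OFAVBQ_DN216556_c1_g1_i1 was scarcer, at medians of 4.42 and 0.319 CPM and of 20.1 and 1.34 CPM. Its offshore 31-day values were 16, 4.01 and 13.5 CPM in controls and 4.91, 0.525 and 13.2 CPM under heat (log2 change -1.39, SE 1.10, edgeR quasi-likelihood adjusted p = 0.698). This became -0.79 and -0.77 when C4 lost its control or its heated library, and -2.32 and -2.34 when C5 did.

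Among the most abundant members, OFAVBQ_DN220156_c0_g1_i1 stood far lower under heat inshore at 5 days. It held 290 to 886 CPM (median 613) in those controls and 5.28 to 474 CPM (median 32.7) in the heated fragments. The heated values lay at the low end apart from that of A4, 474 CPM, which fell among the controls. At 31 days inshore controls had 493 to 1048 CPM (median 843) and heated fragments 74.4 to 1094 CPM (median 201). The value of 1094 CPM, in heated B3, exceeded every control. At 31 days the offshore values were 1052, 682 and 536 CPM in the controls of C2, C4 and C5 and 361, 215 and 720 CPM under heat, where C5 went the other way (log2 change -1.19, SE 0.82, edgeR quasi-likelihood adjusted p = 0.654). Leaving out the C4 control gave -0.51 and leaving out heated C4 -0.50, against -1.95 and -1.98 for the libraries of C5.

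OFAVBQ_DN215677_c1_g1_i9, the member with the highest mean (877 CPM), owed that mean to a few fragments. Inshore controls of 5 days ran from 17.5 to 6809 CPM (median 78.1), and those of 31 days from 10.4 to 3419 CPM (median 27.3). Heated inshore fragments ran from 9.77 to 181 CPM (median 29.2) at 5 days and from 6.32 to 20338 CPM (median 11.5) at 31 days. Offshore its values at 31 days were 4.0, 128 and 17.8 CPM in controls and 1.58, 6.65 and 0.159 CPM under heat. The change was not called there (log2 change -4.16, SE 2.86, edgeR quasi-likelihood adjusted p = 0.654). Other members had such ranges too: 14 of the 200 spanned over 16-fold in the 9 inshore controls of 5 days, against 2.75% of all features. The SD of log2(CPM+1) in those controls had a median of 0.63 over the members and 0.39 over all features, while mean levels were alike (medians of 12.2 and 11 CPM).

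OFAVBQ_DN219586_c5_g2_i7 had medians of 217 and 96.8 CPM inshore at 5 days (control and heated) and of 235 and 122 CPM at 31 days. The B4 fragments stood above the rest of their groups in both arms of 5 days, at 957 CPM (control) and 316 CPM (heated). Offshore at 31 days the controls of C2, C4 and C5 held 520, 379 and 176 CPM and the heated fragments 354, 94.2 and 338 CPM. C5 was higher under heat, and the change was not called (log2 change -0.74, SE 0.57, edgeR quasi-likelihood adjusted p = 0.693). Its sign rested on C4, since the log2 change was 0.23 without the C4 control and 0.25 without the heated C4 fragment, whereas it was -1.62 and -1.65 without those of C5.

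A minority of the 200 did not stay low offshore at 31 days. Of the 35 members at or above 0 there, 30 were called lower inshore and 13 offshore at 5 days (edgeR quasi-likelihood, adjusted over all features). Over all 200 members those calls made up 83.5% and 40.5%, so nothing particular to the 35 is read from them. Inshore at 31 days 2 of the 35 were called lower, beside 34.5% of the 200. In single tags, 10 of the 35 were still lower in C2, 15 in C4 and 16 in C5. OFAVBQ_DN222718_c2_g1_i3 had the smallest p of those that were higher. It measured 56.2, 12.8 and 98.2 CPM in the offshore 31-day controls of C2, C4 and C5 and 320, 42.2 and 110 CPM in the heated fragments. Each tag was higher under heat, but the change did not pass (log2 change 1.23, SE 0.58, edgeR quasi-likelihood adjusted p = 0.504). It was 0.62 without either fragment of C2 and 1.37 without the C4 control. At 5 days the same transcript had, offshore, 37.7, 38.6 and 91.1 CPM in the controls of C1, C2 and C5 and 13, 5.75 and 47.5 CPM under heat.

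OFAVBQ_DN201408_c6_g3_i1 had the next smallest p in the upward direction. At 31 days offshore its controls held 61.7 (C2), 11.5 (C4) and 65.3 CPM (C5) and its heated fragments 120, 36.7 and 47.9 CPM. C2 and C4 were higher and C5 lower (log2 change 0.50, SE 0.47, edgeR quasi-likelihood adjusted p = 0.756). The log2 change was 0.29 without either fragment of C2, 0.30 without the C4 control and 0.97 without the C5 control. Its difference of group medians was -0.36, opposite in sign to the fitted change.

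Levels also differed between the times within an arm. The members had been chosen on 5-day levels offshore and not on those of 31 days, and a choice of this kind favours a smaller difference at the time it did not use. In offshore heated fragments the group median at 31 days exceeded that at 5 days by a median of 0.44 over the members (0.05 over all features). In offshore controls it was lower by a median difference of -0.47 (-0.04 over all features), or of -0.36 without the C4 control (0.04). Inshore the same differences were 0.28 in heated fragments (0.00 over all features) and 0.11 in controls (0.05). The fragments of each time were kept at other heat temperatures, and the times were not tested against each other.

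Between the habitats at 31 days, 0 differences of the heat responses were called for a member by edgeR (0% of all features), with 23 members at an unadjusted p under 0.05, 11.5% of them, beside 13.7% of all features. DESeq2 called 1 member and 35 features in all. At 5 days 7 members were called further down offshore than inshore (0.0869% of all features). They are OFAVBQ_DN122952_c0_g1_i1, OFAVBQ_DN65173_c0_g1_i1, OFAVBQ_DN65716_c0_g1_i1, OFAVBQ_DN179263_c0_g1_i1, OFAVBQ_DN303957_c0_g1_i1, OFAVBQ_DN174567_c0_g1_i1 and OFAVBQ_DN181186_c0_g2_i1. Their log2 changes were -6.47 to -4.79 offshore and -1.61 to -0.57 inshore (edgeR quasi-likelihood adjusted p of the difference from 0.00451 to 0.0409). With colony tags as pairs 3 of the 200 were called, and without 1 library of C1 or C2, 1 or 2. Since both responses entered the selection, these calls describe the members.

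All 7 followed the algal counts of the libraries. A member was said to follow when its CPM had a Spearman correlation of 0.8 or more, over the 48 libraries, with the algal counts per coral count or with either of a pair of algal feature sets, which oppose each other along principal component 1 of the algal features in controls. Of the 200, 14 did so (7%), against 0.3% of all features. Set 2, the algal set that prevailed in offshore controls, was followed by 8 (Spearman 0.933 to 0.988), and all algal counts by 6 (0.806 to 0.877). The libraries share depth and heat arm, so these correlations describe levels that moved together. The members were chosen to be lower under heat, and algal counts were lower under heat in nearly all pairs. A higher share of followers thus follows in part from the choice. Whether the 8 are coral transcripts was not tested.

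OFAVBQ_DN181186_c0_g2_i1 and OFAVBQ_DN179263_c0_g1_i1 were closest to set 2. Offshore at 31 days OFAVBQ_DN181186_c0_g2_i1 had 62.2, 48.1 and 69.6 CPM in the controls of C2, C4 and C5 and 0, 0 and 0.159 CPM in the heated fragments, and it was not called (edgeR quasi-likelihood adjusted p = 0.0694, and 0.00725 with tags as pairs). OFAVBQ_DN179263_c0_g1_i1 had 16.2, 15.5 and 16.7 CPM in controls and no count in any heated fragment. Since 0 counts allow up to 0.525 CPM in these libraries (3 counts each), it was at least 30.7-fold lower (edgeR quasi-likelihood adjusted p = 0.0853, and 0.0399 with tags as pairs). Both calls made with tags as pairs, a setting that regrouped only inshore fragments, were lost with counts summed per genotype and arm (adjusted p = 0.0618 and 0.18, edgeR quasi-likelihood). The C4 control, low in many other members, was near the other controls in both.

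In the controls the levels of the set 2 followers went with the algal set, which follows from how they were picked. The part of the genotype label was not tested. Of the B2 and B3 controls of 31 days, both labelled In2, B2 had 99.4% set 1 and B3 0.64%. OFAVBQ_DN181186_c0_g2_i1 measured 0.191 CPM in B2 and 74.7 CPM in B3, and OFAVBQ_DN179263_c0_g1_i1 0 and 19.8 CPM. Over the 6 controls of In1, where algal set 1 made up at least 75.1% of the counts of both sets, the 8 followers of set 2 had 0 to 13.9 CPM. Over the 6 offshore controls, with 0.18% to 5.69% set 1, they had 2.67 to 108 CPM. In the offshore heated fragments of 31 days, with 97.7% (C2), 99.2% (C4) and 99.4% (C5) set 1, none exceeded 0.159 CPM. The part of heat and that of the algal set in this were not tested. By contrast the 6 that followed all algal counts, among them OFAVBQ_DN201663_c4_g1_i1 and OFAVBQ_DN208354_c4_g1_i3, had at least 10.6 CPM in each In1 control.

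**Figure D4:**
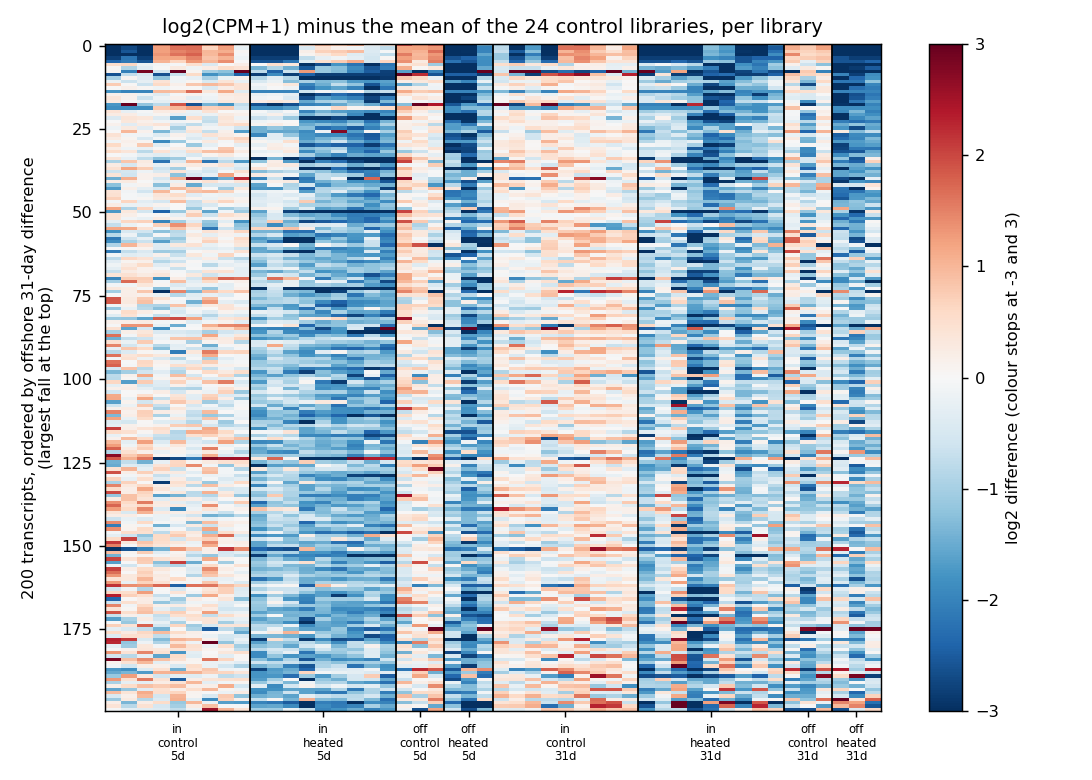
Log2(CPM+1) of each of the 200 members (rows, ordered by the offshore 31-day difference) in each of the 48 libraries (columns, by group), minus the mean of the 24 controls, with colour limits at -3 and 3. The top rows, which hold set 2 followers, are low in some inshore controls as well as under heat, and the C4 control (the middle column of the offshore controls of 31 days) is low across many rows.

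Without the followers the offshore 31-day difference of group medians was nearly as large. The other 186 members had median differences of -1.30, -1.56 and -1.12 in the 3 comparisons of the choice, and of -0.59 offshore at 31 days, where 151 were lower and 91 lower by 0.6 or more. The 14 followers had -1.25, -3.75, -1.86 and -2.70. Of the 19 members at or below -2 offshore at 31 days, 10 were followers, and so were 2 of the 4 called. Over all 200, the median Spearman correlation with algal counts per coral count was 0.52 over the 48 libraries (0 for all features). The value over the 48 libraries follows in part from the choice, as algal counts were mostly lower under heat too. Within the 24 controls it was 0.09 (-0.005 for all features) and within the 24 heated libraries 0.01 (0.05 for all features).

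All pairs of fragments other than the 3 offshore ones of 31 days consist of libraries that the selection used, so low medians there follow from the choice. At 5 days all 12 pairs had a median change below 0, from -0.54 in A4 to -2.12 in C2, with 149 to 196 members lower. In A6 the algal count per coral count was level (log2 change 0.02), and the median member change was -1.25 with 168 lower, beside 51.9% of all features. In C1, where the algal count changed most (-4.53), the median member change was -1.30. D3 had a log2 algal change of -0.31 and a median member change of -1.63.

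At 31 days all 11 pairs again had a median below 0, from -0.36 in C4 to -1.76 in B3, with 130 to 195 members lower. The A4 pair had a level algal count (-0.01) and a median member change of -0.42, and B3 and B2, of label In2, had the largest member changes (-1.76 and -1.71). In B3 and B2 the median of all features was itself lower, by -0.57 and -0.39, and both heated fragments are among the 3 libraries with the 106 abundant features. BLY5 and C2 had algal changes of -3.14 and -3.92 and median member changes of -1.04 and -0.95. The heated fragment was lower in all 12 pairs of 5 days in 95 members (2.76% of all features) and in all 11 pairs of 31 days in 33 (0.577%), which again follows in part from the choice.

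**Figure D5:**
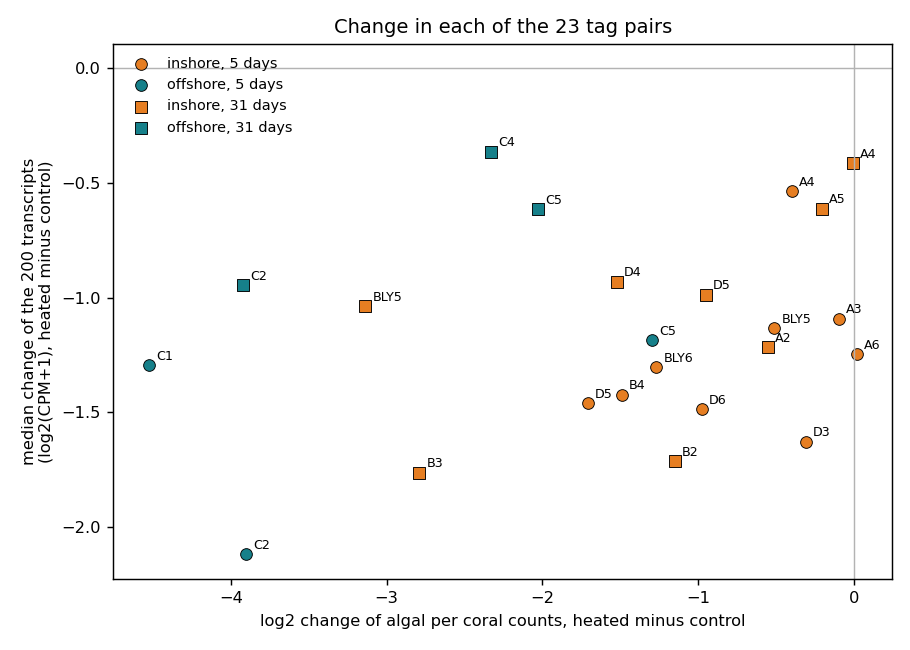
Median change of the 200 members (y axis, log2(CPM+1), heated minus control) against the log2 change of algal counts per coral count (x axis) in 23 tag pairs; circles are 5 days, squares 31 days, orange inshore, teal offshore, and labels are colony tags. Every pair lies below 0 on the y axis, A6 (5 days) at an algal change of 0.02 included, where all pairs but the 3 offshore ones of 31 days hold libraries used to choose the members.

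By genotype label the mean of the pairs' median changes at 5 days was -0.96 in In1 (3 tags), -1.22 in In2 (2 tags), -1.52 in In3 (3 tags) and -1.42 in In4 (1 tag). Offshore, with 1 tag each, it was -1.30 in O1, -2.12 in O2 and -1.19 in O5. At 31 days In1 had -0.75, In2 -1.74, In3 -0.96 and In4 -1.04, and O1, O2 and O5 had -0.95, -0.36 and -0.62. In1 was the inshore label with the smallest mean change at both times. It also had the smallest log2 algal change of the inshore labels, -0.16 at 5 days and -0.25 at 31 days. The largest inshore algal change was in In4 at both times (-1.49 and -3.14), whereas the largest member change was in In3 and then In2. A link between algal and member changes was not tested. Within In1 the tags spread from -0.54 (A4) to -1.25 (A6) at 5 days and from -0.42 (A4) to -1.22 (A2) at 31 days. Labels were not tested against each other.

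The 200 belong to 191 assembly components, and 8 components held several of them (17 members in all). No other feature shared an assembly gene with a member, as each feature of the table carries its own gene identifier. The 150 non-member features of the same components, of which 73 were tested at 5 days and 72 at 31 days, had smaller median changes. This follows in part from the choice, which took the members for their large differences. Inshore at 5 days 15 of the 150 were called lower (5.3% of all features) and 3 higher (edgeR quasi-likelihood, adjusted over all features). Their median log2 change was -0.52, beside 0.02 over all tested features. Offshore at 5 days 0 were called lower (1.37% of all features) and 1 higher, with a median of -0.28 (0.03). Inshore at 31 days 3 were called lower (1.26%) and 1 higher, with a median of -0.24 (0.03). Offshore at 31 days 0 were called lower (0.0227%) and 0 higher, with a median of -0.15 (0.01). Estimated counts can be split between transcripts that share sequence, so the value of a single member is less certain where its component holds others.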

How the data were processed

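Stranded mRNA libraries of coral tissue were made from total RNA, per the labels' protocols. The authors deposited estimated counts per assembled transcript, in a coral table and in another that its name marks as symbiont. The table names hold the word kallisto, and the submitters' processing notes name Trimmomatic 0.36 and RSEM with no role. Which tool produced them and the reference were not given in the sources used here. Of the deposited estimated counts 23.6% were not whole in the coral and 3.07% in the algal table, and they were rounded for tests. A coral column with BL6 in its name was taken as BLY6, the sample left for it.

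CPM was taken on the total of each coral column. Members were chosen on the difference of group medians of log2(CPM+1), with a mean of 2 CPM or more and a difference of -0.6 or lower, and at most 200 were kept. The members, the lists and the tests were chosen with earlier results of these data known. All 200 passed edgeR's filter on low counts (filterByExpr) at both times. Quasi-likelihood F tests of heat were run in edgeR 4.0.16 under R 4.3.3 after TMM scaling, in a model of the 24 libraries of a time, with genotype labels as terms and heat nested in habitat. P-values were adjusted by Benjamini-Hochberg over all features tested, at 0.05. Each SE printed with a log2 change was derived from the test, as the size of that change over the square root of its F statistic. The test was also run on simulated counts, drawn without a correlation between the libraries of a tag. The outcome is not given here, and nothing is read from it.

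Named members were the 4 with the largest weakest difference, the 4 with the highest mean CPM, the last 2 inside and first 2 outside the limit, the 2 with the smallest edgeR p offshore at 31 days in each direction, and the 2 with the highest correlation with an algal count. Beyond the rule, 1 of the 4 called members, 1 member of the largest component and the 7 members called between habitats were named after their values were seen. Algal sets 1 and 2 hold algal features, of 5 CPM or more on average in controls, that correlate at 0.9 or more, in opposite directions, with principal component 1 of the controls.

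Colony tags paired the arms: once group means were taken out, both libraries of a tag correlated at 0.48 to 0.75 in the 12 pairs of 5 days and 0.37 to 0.72 in the 11 of 31 days. D3 and D6 had no partner at 31 days. All 156 pairs of libraries within a group differed beyond sampling noise (lowest chi-square per feature 3.28). Where labels do not say that fragments came from separate colonies, p-values measure the spread between fragments. Alternatives were other size factors, no filter, DESeq2 1.42.0, the tag block, no genotype term, summed counts, and libraries or labels left out.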

Additional observations from a re-analysis of the deposited data

Results flagged for a closer look

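Single inshore libraries stood far from the rest of their group in 13 of the 76 group values tested (Dixon's criterion at 95%). Offshore groups, of 3 libraries each, were not tested, so the C4 control could not be flagged. Chance alone gives about 1 in 20 for normally spread values. Most values here were CPM, all 13 stood high, and that rate need not hold for them. At 5 days the B4 control held 957 CPM of OFAVBQ_DN219586_c5_g2_i7, and the A4 control 32.6 CPM of OFAVBQ_DN209353_c0_g1_i1. Among heated fragments of 5 days, A4 stood high for OFAVBQ_DN216556_c1_g1_i1 (8.93 CPM), OFAVBQ_DN220156_c0_g1_i1 (474 CPM) and OFAVBQ_DN217826_c12_g1_i4 (89.9 CPM). B4 stood high for OFAVBQ_DN215677_c1_g1_i9 (181 CPM), OFAVBQ_DN219586_c5_g2_i7 (316 CPM) and OFAVBQ_DN222718_c2_g1_i3 (65.9 CPM). At 31 days the D4 control held 103 CPM of OFAVBQ_DN222718_c2_g1_i3. Heated A4 held 22.1 CPM of OFAVBQ_DN217429_c3_g6_i1, heated A5 269 CPM of OFAVBQ_DN193785_c0_g1_i3, and heated A2 20338 CPM of OFAVBQ_DN215677_c1_g1_i9, which also gave A2 the highest member share of its group, 2.36%.

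The heat responses of the habitats at 5 days differed, by the interaction term of the edgeR model, in 7 members. The log2 change offshore minus inshore was -3.72 for OFAVBQ_DN122952_c0_g1_i1, -3.58 for OFAVBQ_DN65173_c0_g1_i1, -4.01 for OFAVBQ_DN65716_c0_g1_i1 and -4.47 for OFAVBQ_DN179263_c0_g1_i1. It was -4.86 for OFAVBQ_DN303957_c0_g1_i1, -4.73 for OFAVBQ_DN174567_c0_g1_i1 and -3.98 for OFAVBQ_DN181186_c0_g2_i1. All 7 follow algal set 2, and its part in the difference was not tested.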

How the results depend on the processing

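The median log2 change of the members offshore at 31 days (-0.77 in the edgeR model) stayed between -0.60 and -0.83 under the other settings and between -1.02 and -0.67 with 1 offshore library left out. Library totals moved the median of all features to 0.22. The count of members lower in group median (165) ran from 141 to 176, and 359 to 539 features passed the 3 differences, with 127 to 194 of the members kept. Single calls depended on the setting, and the cause was not tested. The 4 calls offshore at 31 days became 19 with no filter, 34 with DESeq2, 9 with the replicate block (tags as pairs), 24 with B2 and B3 as separate genotypes, 28 without In2 and 2 without the algal followers. They became 0 with counts summed per genotype (unadjusted p under 0.05 in 82) and also 0 without In3, and 0 to 2 with 1 offshore library left out. The 39 members whose arms did not overlap offshore at 31 days became 94 without the C4 control, a setting chosen after seeing the data. Inshore at 5 days the 167 calls became 109 with no genotype term and 91 with summed counts. Offshore at 5 days the 81 became 139 with no filter, 136 with DESeq2, 8 with no genotype term and 24 to 66 with 1 library left out, the lowest without heated C2. Inshore at 31 days the 69 became 28 with the replicate block, 41 with no genotype term, and 0 with summed counts (118 at an unadjusted p under 0.05) or without In3 (110). The 7 habitat differences at 5 days became 3 with the replicate block, 0 with no genotype term, 2 with summed counts and 1 to 7 with 1 library left out, and the 0 of 31 days became 1 with DESeq2. Features of the same assembly gene gave 0 calls, as there are none, and those of the same component 15 inshore at 5 days (5.3% of all features). The replicate block changed no other count by over 1.5 times. OFAVBQ_DN219586_c5_g2_i7 turned positive offshore at 31 days without the 3 libraries of abundant features (0.23) and without the C4 control (0.23) or heated C4 (0.25), and ran down to -1.65 with another offshore library left out. Depth limits the scarce members, such as OFAVBQ_DN225138_c1_g4_i2.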
